A study of Mus musculus with 18 samples.

Results

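Mast cell proteases and the receptor Kit were followed in colon from a colitis model and from a CAC model, and in organoids grown from CAC tumors. The 8 genes were taken by symbol from the deposited count table of 36757 genes: Mcpt1, Mcpt2, Mcpt4 and Cma1 (chymases), Tpsb2 and Tpsab1 (tryptases), Cpa3 (carboxypeptidase A3) and Kit. The 18 libraries came from C57BL/6 mice, 3 labelled wild type (RNF138fl/fl in the study's methods) and 3 labelled RNF138-/- in each model, and treatment began at 6 to 8 weeks of age. In the colitis model, mice drank 2% dextran sulfate sodium (DSS) for 7 days and then plain water for 14 days, went through 2 further cycles and were killed 4 weeks after the last one. In the CAC (colitis-associated cancer) model, the mutagen azoxymethane (AOM, 10 mg/kg, intraperitoneal) was injected 4 days before the same DSS cycles. The organoids were grown in matrigel from digested tumor-bearing fragments of CAC colons. All groups therefore had DSS exposure, and no untreated colon was compared here. What limits each group as a model is that the sources do not give the share of tumor in a CAC tissue sample. Nor do they say whether the libraries of a group came from separate mice, so p-values measure the spread between these libraries. That spread exceeded counting error, at a chi-square per degree of freedom between 8.05 and 161 for pairs of libraries of a group. How much of it lies between mice is not known.

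Mast cells store proteases bound to serglycin in their granules and release them on activation, most typically when antigen crosslinks IgE on the high-affinity receptor FcεRI. In the mouse, mucosal mast cells of the gut epithelium make the chymases Mcpt1 and Mcpt2, while connective tissue mast cells of the submucosa and serosa are marked by Mcpt4, Cma1, Tpsb2, Tpsab1 and Cpa3. Kit is the receptor for stem cell factor (Kitl), on which mast cells depend for survival, but it is equally a marker of the interstitial cells of Cajal, the pacemaker cells of the gut muscle, and of deep crypt secretory cells of the colonic epithelium. A change in a bulk library can come from fewer cells of a type or from less RNA per cell, and these cannot be told apart.

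Total counts per library were between 11514716 and 24390082, so that 1 count was worth between 0.0404 and 0.0946 CPM, that is, counts scaled to a common library size. CPM were normalized by the TMM method on 1 scale for all libraries. Rnf138 itself was at 19.6 ± 4.95 CPM (SD, n = 3) in wild type and 18.8 ± 0.757 in the colitis libraries labelled RNF138-/-, at 25.4 ± 3.42 and 43.5 ± 3.40 in CAC, and at 48.9 ± 9.78 and 46.9 ± 3.81 in the organoids. The label RNF138-/- is thus not matched by a lower Rnf138 count, and in CAC Rnf138 was higher in the libraries with that label. A count over the whole gene does not measure the protein, for which the paper shows immunoblots of testes from wild-type and knockout mice. Every genotype statement here is about libraries labelled RNF138-/-. Other features moved with the groups. The 10 smooth muscle markers (Myh11, Acta2 and others) summed to between 2962 and 9904 CPM in wild-type CAC libraries and between 181 and 343 in CAC libraries labelled RNF138-/-. The 6 B and plasma cell markers summed to between 1503 and 2263 and between 125 and 215. The 4 Y-linked genes were at 0 in the wild-type organoids and between 242 and 281 CPM in organoids labelled RNF138-/-. Their part in the results was not tested, and in the organoids genotype and sex cannot be told apart.

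The chymases lie in 1 cluster on chromosome 14 of mm10 (GENCODE M21 positions): Cma1 at 55941451 to 55944675 (minus strand), Mcpt1 at 56017971 to 56020384 (plus), Mcpt2 at 56042041 to 56044642 (plus) and Mcpt4 at 56059629 to 56062313 (minus). The tryptases lie together on chromosome 17, Tpsab1 at 25343245 to 25345562 (minus) and Tpsb2 at 25366305 to 25369098 (plus). Cpa3 is on chromosome 3 at 20215620 to 20242181 (minus) and Kit on chromosome 5 at 75574916 to 75656722 (plus). The transcripts of Mcpt1 and Mcpt4 had 86.8% identical bases (840 of 968 aligned bases, gaps left out), Mcpt1 and Mcpt2 83.9%, and Mcpt1 and Cma1 72.9%. Few windows are shared with other genes: 0% of the 50-base windows of Mcpt1, Mcpt2, Cpa3, Tpsb2, Tpsab1 and Kit occur in another annotated gene, against 5.48% of Mcpt4 (shared with Cma2) and 5.38% of Cma1 (shared with a pseudogene), and 0% of 150-base windows in any of the 8.

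Promoters are shown for the 4 proteases, among those higher in CAC than in colitis, that were matched in the RefSeq promoter set used here. They are the 250 bases before the start (GRCm38.p6, RefSeq), 5′ to 3′ on the gene's strand. Capitals mark the GATA motif, searched as AGATAA or AGATAG, and as TGATAA or TGATAG, on both strands, since GATA factors are known regulators of mast cell genes.
Mcpt1, chr14:56017714-56017963 (plus strand): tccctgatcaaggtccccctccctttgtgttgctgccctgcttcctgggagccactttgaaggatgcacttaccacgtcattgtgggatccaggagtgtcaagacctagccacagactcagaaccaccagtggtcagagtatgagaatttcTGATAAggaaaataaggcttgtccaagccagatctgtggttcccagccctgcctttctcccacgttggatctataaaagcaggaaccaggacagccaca
Mcpt4, chr14:56062311-56062560 (minus strand): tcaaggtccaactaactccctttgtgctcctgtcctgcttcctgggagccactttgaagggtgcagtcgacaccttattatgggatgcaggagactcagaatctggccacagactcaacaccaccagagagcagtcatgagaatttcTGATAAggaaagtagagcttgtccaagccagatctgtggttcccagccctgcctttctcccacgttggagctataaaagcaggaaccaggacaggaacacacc
Cma1, chr14:55944676-55944925 (minus strand): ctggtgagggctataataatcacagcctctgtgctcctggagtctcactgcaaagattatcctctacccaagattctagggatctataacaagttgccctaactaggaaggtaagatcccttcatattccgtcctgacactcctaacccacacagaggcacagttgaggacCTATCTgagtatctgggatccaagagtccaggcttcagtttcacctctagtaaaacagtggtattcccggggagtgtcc
Cpa3, chr3:20242182-20242431 (minus strand): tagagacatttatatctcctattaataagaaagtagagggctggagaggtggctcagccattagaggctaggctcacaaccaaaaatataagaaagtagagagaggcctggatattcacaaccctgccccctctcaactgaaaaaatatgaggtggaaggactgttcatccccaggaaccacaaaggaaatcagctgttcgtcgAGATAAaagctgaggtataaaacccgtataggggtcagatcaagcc
Each of the 4 windows held 1 GATA motif, at -99 to -94 in Mcpt1, -103 to -98 in Mcpt4, -79 to -74 in Cma1 (on the opposite strand) and -46 to -41 in Cpa3, counted from the start. The motif occurs in 26.5% of 32851 mouse promoter windows of that length. The Mcpt1 and Mcpt4 windows were identical at 212 of 240 aligned bases (88.3%), and the Kit windows held 0 GATA matches. The E-box letters CACATG or CATGTG, and CACGTG, (17.6% of windows) had 0 matches in the windows of these 4 genes and Kit. These matches describe letters only.

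In colitis the proteases were close to the limit of detection. Mcpt1 was at 0.558, 0.393 and 0.866 CPM in the wild-type libraries and at 0, 0.779 and 0.515 in those labelled RNF138-/-, which is 31 and 23 counts per group. Mcpt2 had 5 counts in each group of 3 libraries, Cma1 11 and 10, Cpa3 16 and 8, Mcpt4 18 and 6, and Tpsab1 2 and 1. Tpsb2, the more abundant tryptase, had the highest group means of CPM here, at 1.23, 2.02 and 1.11 CPM against 2.69, 1.98 and 0.258, where Mcpt1 was above it in the last library. The genotypes overlapped for each of the 7 proteases. Only Tpsb2 and Kit had enough counts to enter the test, and 0 of the 8 members were called, at an adjusted p under 0.05 with a fold change of at least 2 (edgeR quasi-likelihood test, 0.0902% of 16623 genes called). Kit stood at 126, 128 and 143 CPM in wild type and 74.5, 83.5 and 91.5 in the libraries labelled RNF138-/-. These groups did not overlap, as for 17.2% of all genes tested, and the log2 fold change was -0.67 (SE 0.17, edgeR adjusted p = 0.215, and 0.029 by DESeq2, below a fold of 2). The difference for Tpsb2 was 0.15 (SE 0.69, edgeR adjusted p = 0.967). At an unadjusted p under 0.05, 1 member (Kit) passed.

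**Figure D1:**
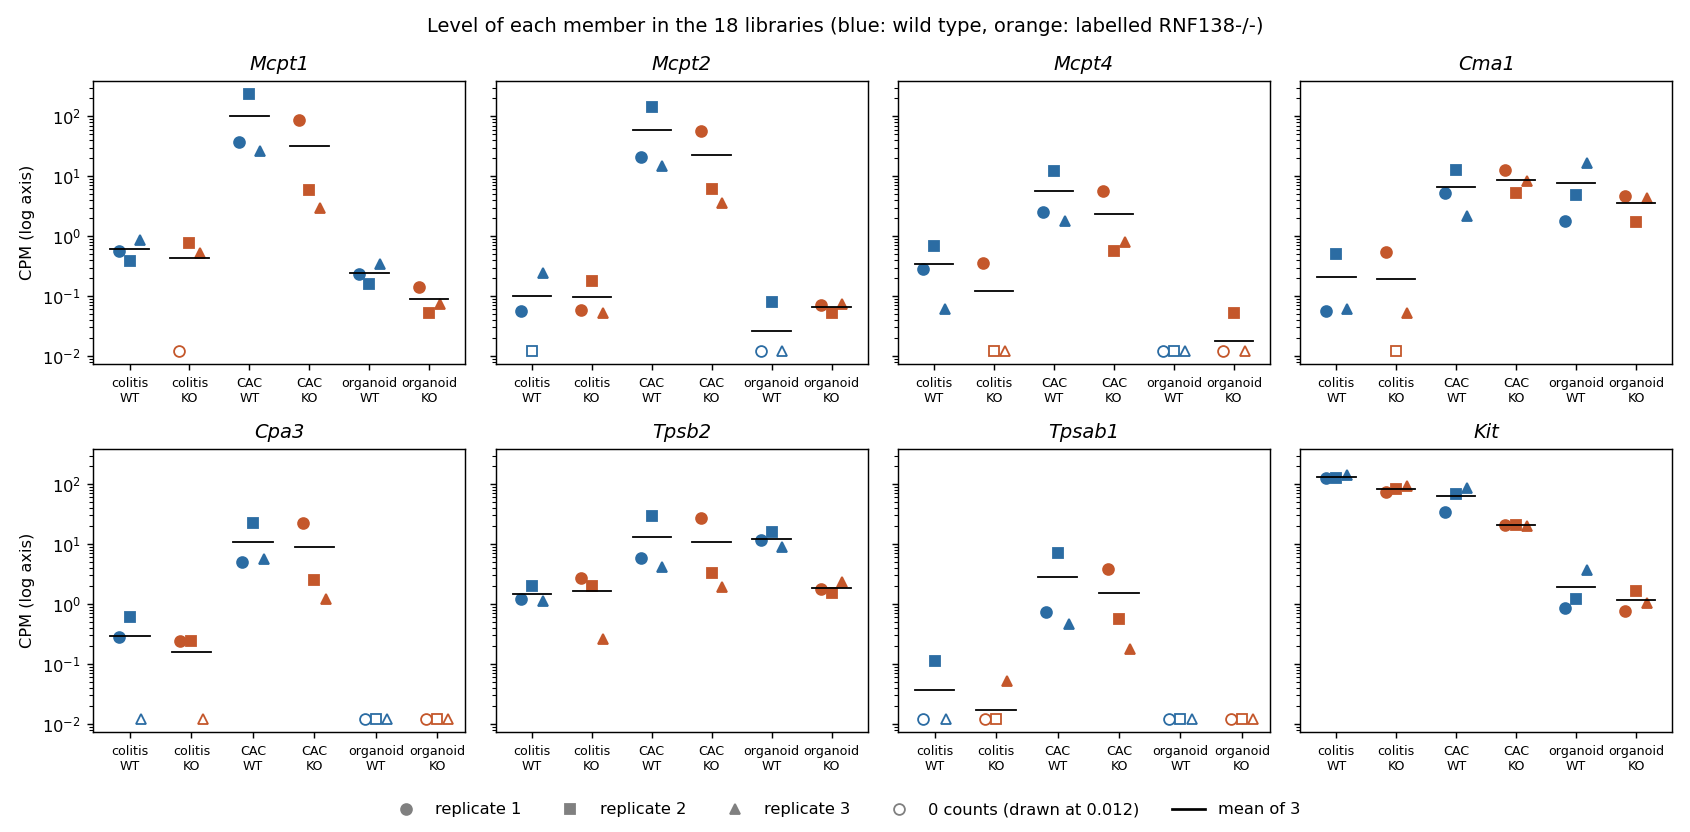
CPM (log axis) of the 8 members in the 18 libraries, 3 points per group with replicate numbers as symbols, black lines for the mean and open symbols for libraries with 0 counts. The 7 proteases are near 1 CPM or below in colitis except Tpsb2 and rise in CAC, where the wild-type replicate 2 and the replicate 1 labelled RNF138-/- are highest, while Kit falls from colitis to CAC to organoids.

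CAC tissue carried more of every protease than colitis tissue, in each genotype. Mcpt1, a chymase of mucosal mast cells, was at 37.7, 236 and 26.2 CPM in the wild-type CAC libraries, 165-fold above the colitis mean, and at 87.8, 5.94 and 2.98 CPM in CAC libraries labelled RNF138-/-, 74.8-fold above. Its partner Mcpt2 was at 21.1, 140 and 14.6 CPM and at 56.9, 6.02 and 3.57. All CAC libraries lay above all colitis libraries of their genotype for both, as for 18.2% and 31.7% of all genes tested. The log2 fold changes were 7.36 (SE 1.32) and 6.19 (SE 1.30) for Mcpt1, and 9.14 (SE 1.39) and 7.76 (SE 1.37) for Mcpt2 (edgeR adjusted p = 0.00115, 0.000934, 0.000331 and 0.000237). Single libraries set much of the size: the log2 fold change of Mcpt1 was 5.68 without wild-type CAC replicate 2 and 3.34 without CAC replicate 1 labelled RNF138-/-, and it was called in both. That of Mcpt2 was as low as 7.39 in wild type and 5.56 in the libraries labelled RNF138-/- over the alternative fits. The colitis side of Mcpt2 rests on 5 counts per group.

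The connective tissue type proteases rose as well. Cpa3, the carboxypeptidase that degrades peptides such as endothelin and snake venom toxins, was at 4.98, 22.2 and 5.68 CPM in wild-type CAC and 22.8, 2.55 and 1.22 in CAC labelled RNF138-/-, log2 fold changes of 5.15 (SE 1.28) and 5.77 (SE 1.38) over colitis. Cma1, the ortholog of human chymase, was at 5.22, 12.6 and 2.18 CPM and at 12.8, 5.22 and 8.23, log2 fold changes of 4.95 (SE 1.08) and 5.46 (SE 1.09). It was the 1 protease whose lowest CAC library labelled RNF138-/- exceeded 5 CPM. Mcpt4, the main chymase of connective tissue mast cells, was at 2.52, 12.4 and 1.80 CPM and at 5.63, 0.566 and 0.814, and rose by 4.02 (SE 1.13) and 4.24 (SE 1.29) on the log2 scale. With single libraries left out, the log2 fold changes of Mcpt4 ranged from 2.62 (without wild-type CAC replicate 2) to 4.93 (without wild-type colitis replicate 2) and from 2.50 (without CAC replicate 1 labelled RNF138-/-) to 8.32 (without colitis replicate 1 of that label), and the call was lost in some fits of each genotype (edgeR adjusted p up to 0.125 and 0.107). Those of Cpa3 ranged from 4.08 to 6.15 and from 3.56 to 6.29, lowest without the same CAC libraries, and its wild-type call was lost without colitis replicate 1 (edgeR adjusted p = 0.0667). Those of Cma1 ranged from 4.08 to 6.64 and from 4.83 to 7.97.

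The tryptases differed in level. Tpsb2 was at 5.78, 29.9 and 4.16 CPM in wild-type CAC and at 27.1, 3.32 and 1.94 in CAC labelled RNF138-/-, where the groups overlapped with colitis. Its log2 fold changes were 3.20 (SE 0.96) and 2.72 (SE 0.94). Both calls were lost in a fit of the colitis and CAC libraries alone (edgeR adjusted p = 0.0735 and 0.0537), and without wild-type CAC replicate 2 the value was 1.75 (edgeR adjusted p = 0.199). Tpsab1 had 170 and 91 counts per CAC group against 2 and 1 in colitis, so the summed counts stood 91.6-fold higher in wild type (95% counting interval 25.0 to 763) and 73.2-fold higher in the libraries labelled RNF138-/- (12.8 to 2922). These intervals cover counting error only. Of these counts, 153 came from wild-type CAC replicate 2 and 73 from CAC replicate 1 labelled RNF138-/-, and without them the folds were 16.4 (3.90 to 147) and 20.3 (3.20 to 846). The fitted fold changes of Tpsab1 and Mcpt2 depend on these few colitis counts.

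By the edgeR test, 7 of 8 members were called higher and Kit lower in each genotype, against 9.78% of 19390 genes called higher and 3.81% called lower in wild type, and 17.5% and 19.6% in the libraries labelled RNF138-/-. Of the proteases, 6 entered the fit of all libraries only through the groups where they are high, since in colitis alone they fell below the filter on low counts, so their share of calls is not independent of the filter. The directions held when single libraries were left out, but the calls did not all do so. In wild type, 3 of 8 stayed called without colitis replicate 1, 5 without replicate 2, 4 without replicate 3, 4 without CAC replicate 2 and 7 without CAC replicate 1. Mcpt1, Mcpt2 and Cma1 were called in each of the 6 fits. In the libraries labelled RNF138-/-, 5 stayed called without colitis replicate 2, 5 without CAC replicate 1 and 7 without colitis replicate 1 or 3, and Mcpt1, Mcpt2, Cma1, Cpa3 and Kit were called in each. Without CAC replicate 1, the log2 fold change of Tpsb2 was 0.69 (edgeR adjusted p = 0.483).

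**Figure D2:**
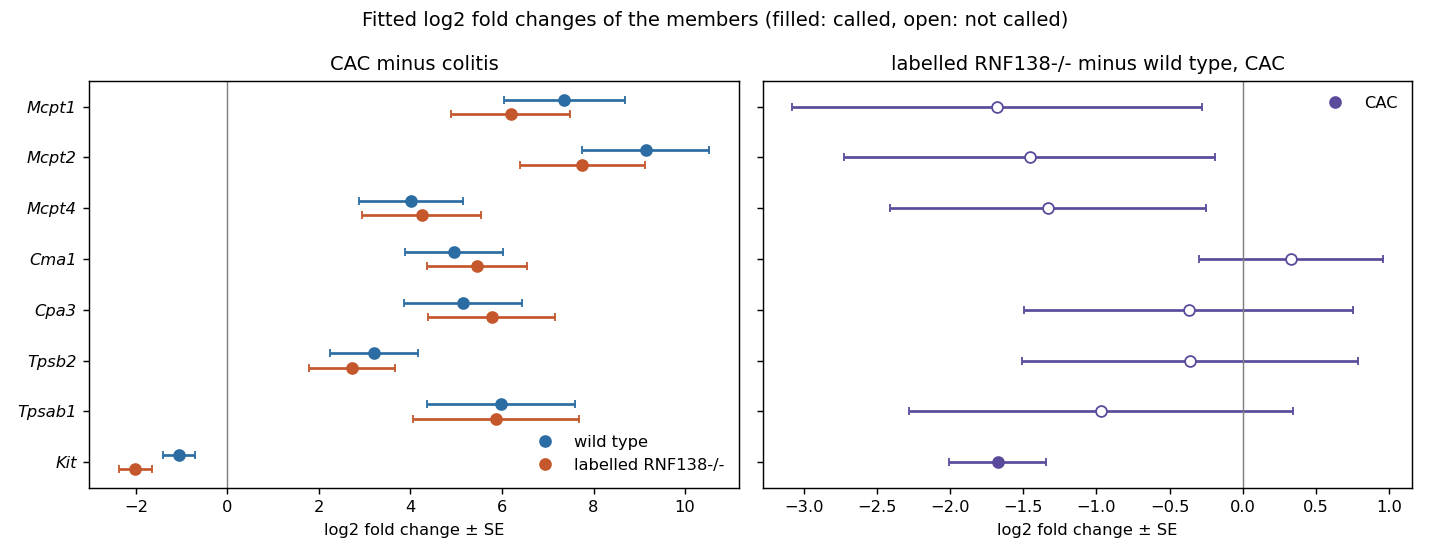
Log2 fold change (horizontal axis) of each member with its SE as bar, CAC minus colitis for each genotype on the left and libraries labelled RNF138-/- minus wild type within CAC on the right, filled where called and open where not. All 7 proteases lie between 2.72 and 9.14 on the left with Kit below 0, and Kit alone is called on the right.

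Per kilobase of exon, which allows genes to be compared, Mcpt1 led in wild-type CAC (98.4 ± 116 CPM per kb, SD, n = 3), followed by Mcpt2 (55.3 ± 66.7), Tpsb2 (8.33 ± 9.05), Cpa3 (7.22 ± 6.43), Kit (7.09 ± 2.98), Cma1 (6.11 ± 4.91), Mcpt4 (5.03 ± 5.34) and Tpsab1 (1.34 ± 1.82). The SD, which is between libraries, is as large as the mean for most. Within each of the 3 libraries the order Mcpt1, Mcpt2, Tpsb2 held (37.2, 19.9 and 3.62 CPM per kb in replicate 1, 232, 132 and 18.8 in replicate 2, 25.8, 13.7 and 2.61 in replicate 3), as did Cma1 above Mcpt4 above Tpsab1. Tpsb2, Cpa3, Kit and Cma1 changed places between the libraries. Mcpt1 and Mcpt2 together took 79.9%, 86.0% and 79.5% of the length-scaled level of the 7 proteases in the wild-type CAC libraries. They took 73.4%, 55.3% and 37.8% in the CAC libraries labelled RNF138-/-, where Cma1 took 6.15%, 22.9% and 45.2%. The ratio of Mcpt1 to Mcpt2 CPM was 1.79, 1.68 and 1.80 in wild type and 1.54, 0.987 and 0.835 in the others. The share of Mcpt1 plus Mcpt2 and this ratio did not overlap between the genotypes, while the share of Cma1 (6.72%, 2.72% and 4.01% in wild type) did. In the same comparison the CPM of 45.2% of 17752 genes did not overlap. The shares and ratios are descriptions without a test, and those of replicates 2 and 3 labelled RNF138-/- rest on 598 and 419 protease counts.

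**Figure D3:**
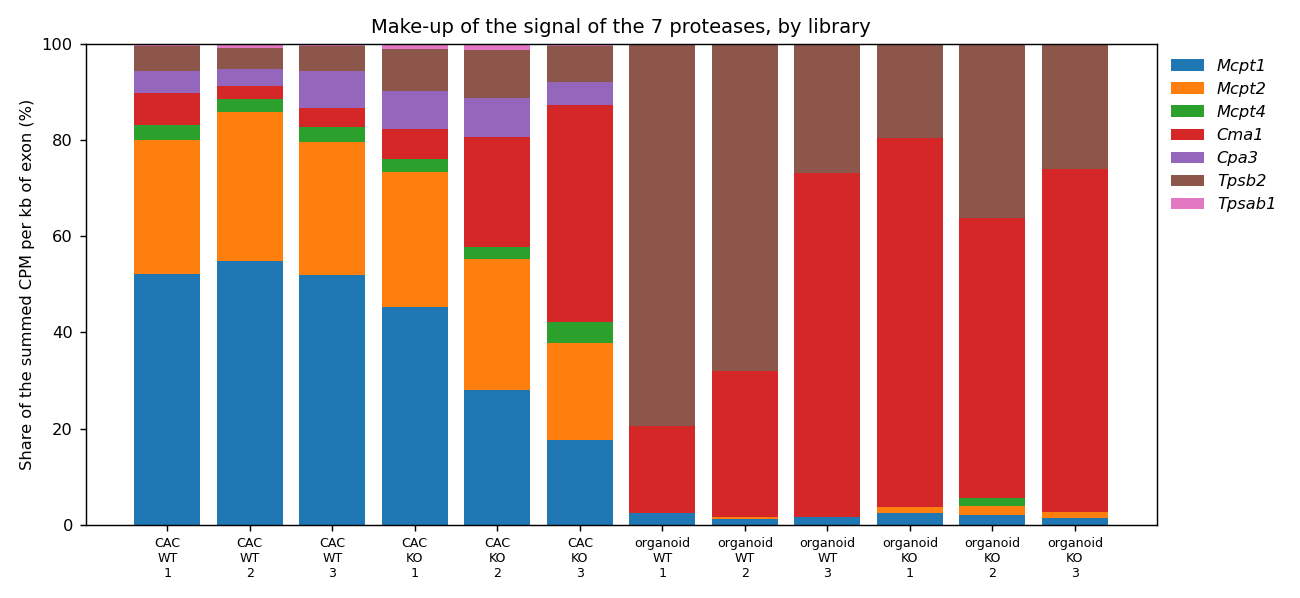
Share of each protease (vertical axis, percent of the summed CPM per kb of the 7 proteases) in the 6 CAC and 6 organoid libraries. Mcpt1 and Mcpt2 take between 37.8% and 86.0% of the CAC bars and at most 3.83% of the organoid bars, which consist mainly of Cma1 and Tpsb2.

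Within a group the proteases moved together. The wild-type CAC replicate 2 was the highest for 7 of 7 proteases, and so was the CAC replicate 1 labelled RNF138-/-. For Mcpt1 the highest library exceeded the lowest by 8.99-fold in wild-type CAC and 29.4-fold in CAC labelled RNF138-/-, and for Cma1 by 5.79-fold and 2.45-fold. Over the 12 colon tissue libraries, Pearson correlations of deviations from the 4 group means (log2(CPM + 0.5)) had a median of 0.89 over the 21 pairs of proteases, with Mcpt1 and Mcpt2 highest (0.98) and Mcpt1 with Cma1 lowest (0.53). Kit correlated with the proteases between -0.27 and 0.12. The libraries share their depth and composition across genes, so these are descriptions.

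Within CAC, the genotype comparison called 1 of 8 members, Kit, against 5.37% of 17752 genes. Mcpt1 averaged 99.8 ± 118 CPM in wild type and 32.3 ± 48.2 in libraries labelled RNF138-/- (SD, n = 3), a log2 difference of -1.68 with a 95% interval from -4.42 to 1.07 (edgeR adjusted p = 0.419). Mcpt2 gave -1.45 (-3.94 to 1.03, edgeR adjusted p = 0.437) and Mcpt4 -1.33 (-3.45 to 0.79, edgeR adjusted p = 0.407). Tpsab1, Cpa3 and Tpsb2 were at -0.97, -0.37 and -0.36, and Cma1 at 0.33, with SEs between 0.63 and 1.31. The genotypes overlapped for each protease. The Mcpt1 difference was -0.026 without wild-type replicate 2 and -4.53 without replicate 1 labelled RNF138-/-, and not called in either fit (edgeR adjusted p between 0.127 and 0.992 over the fits with a library left out). Leaving out wild-type replicate 2 turned the direction of Mcpt2 (0.27), Mcpt4 (0.054), Cpa3 (0.69), Tpsb2 (1.07) and Tpsab1 (1.25). Cpa3 and Tpsb2 also turned without replicate 2 or 3 labelled RNF138-/-, and Cma1 without wild-type replicate 3 or replicate 1 labelled RNF138-/-. At an unadjusted p under 0.05, 1 member (Kit) passed. The difference of the genotype effect between CAC and colitis was called for 0 of 8 members (11.9% of 19390 genes called). At an unadjusted p under 0.05 by edgeR 0 passed, and DESeq2 called 0.

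Kit went the other way from the proteases. It fell from 126, 128 and 143 CPM in wild-type colitis to 34.8, 67.4 and 87.4 in wild-type CAC, a log2 difference of -1.07 (SE 0.35, edgeR adjusted p = 0.0411). In the libraries labelled RNF138-/- it fell from between 74.5 and 91.5 to 20.9, 20.7 and 20.2 CPM, a log2 difference of -2.01 (SE 0.36, edgeR adjusted p = 0.000266). The genotypes in CAC did not overlap, as for 45.2% of all genes, and differed by -1.67 in log2 (SE 0.33, adjusted p = 0.0421 by edgeR, exact permutation p = 0.1, two-sided, the smallest that 3 against 3 allows). The call was lost without wild-type replicate 2 (edgeR adjusted p = 0.0624), without the replicate 1, 2 or 3 labelled RNF138-/- (0.117, 0.163 and 0.112), and with a block for the replicate number (0.0565), at log2 fold changes between -1.58 and -1.68. In wild type, the drop from colitis to CAC lost its call without each of the 3 colitis replicates (edgeR adjusted p = 0.0846, 0.0767 and 0.0820) and without CAC replicate 1 (0.146) or 2 (0.0714). The genotype effects on Kit in CAC and colitis differed by -0.94 (SE 0.49, edgeR adjusted p = 0.211).

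Genes of the other Kit-expressing cells were read beside it. Etv1, a transcription factor of the interstitial cells of Cajal, was at 6.58, 6.86 and 13.4 CPM in wild-type CAC and 0.903, 2.22 and 2.03 in CAC labelled RNF138-/-, a log2 difference of -2.42 (SE 0.47, edgeR adjusted p = 0.04). Ano1, the chloride channel of the same cells, which epithelium can also express, gave 0.04 (SE 0.37). Reg4, a lectin of deep crypt secretory cells, gave 0.22 (SE 0.78). All 10 smooth muscle markers were called lower in CAC libraries labelled RNF138-/- than in wild type (4.83% of genes called lower), and 10 of 10 were called lower in CAC than in colitis there (19.6% of genes), against 0 of 10 in wild type (3.81% of genes, 0 markers at an unadjusted p under 0.05 by edgeR and 0 by DESeq2). Among the 4 colon groups the muscle markers were lowest where Kit was lowest. In the organoids, where Kit was lower still, 9 of 10 were called lower than in CAC tissue in wild type (26.8% of genes called lower) and 8 of 10 higher in the libraries labelled RNF138-/- (17.9% called higher). Their part in the Kit result was not tested.

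**Figure D4:**
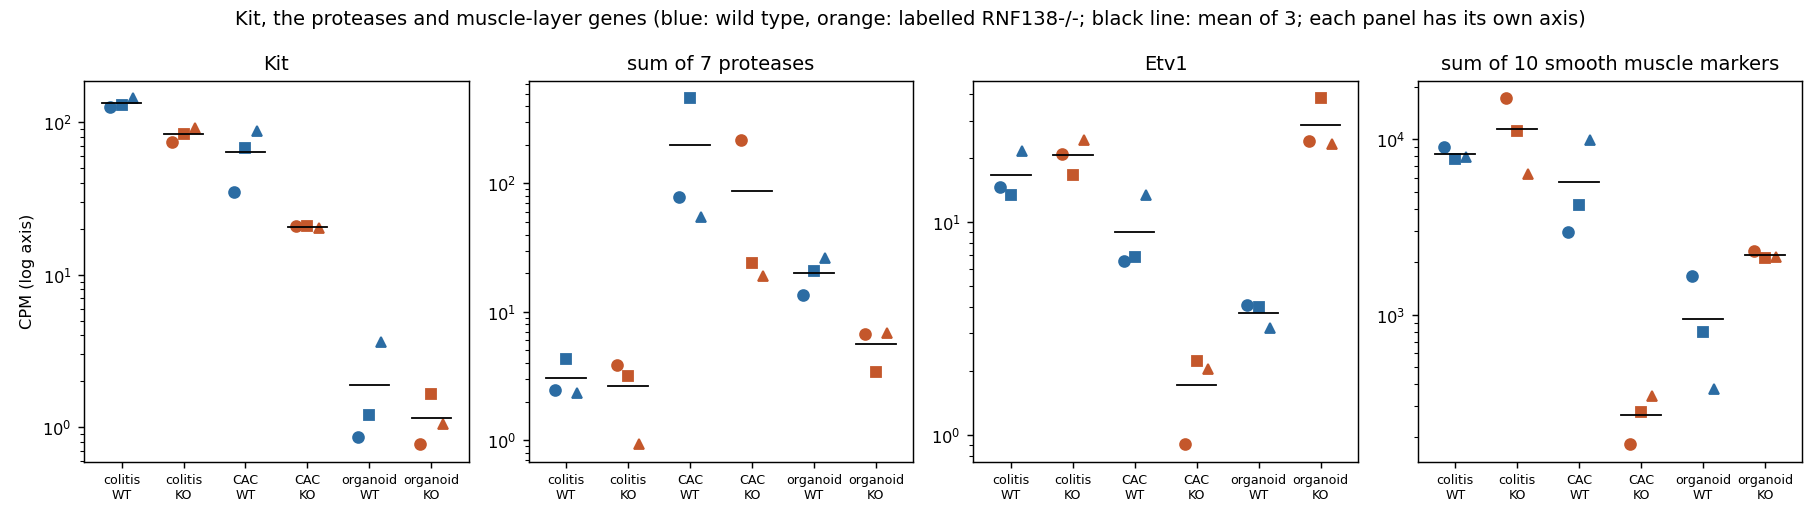
CPM (log axes, each panel on its own scale) of Kit, the summed 7 proteases, Etv1 and the summed 10 smooth muscle markers in the 18 libraries, with replicate symbols and black lines for the mean of 3. In CAC labelled RNF138-/- Kit, Etv1 and the muscle markers are all at the lowest of the 4 colon groups, while the proteases lie between 18.9 and 217 CPM, above all colitis libraries.

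The organoids carried 2 of the 7 proteases and were at or near 0 for the others. Cpa3 and Tpsab1 had 0 counts in all 6 organoid libraries, and Mcpt4 had 0 in wild type and 1 in the others. Against 3 counts per library, wild-type CAC tissue exceeded organoids at least 53.5-fold for Cpa3, 27.2-fold for Mcpt4 and 13.7-fold for Tpsab1, and CAC tissue labelled RNF138-/- at least 44.8-fold for Cpa3 and 7.80-fold for Tpsab1. Without wild-type CAC replicate 2 these limits were 26.0-fold, 10.5-fold and 2.96-fold, and without CAC replicate 1 labelled RNF138-/- 9.53-fold and 1.89-fold. In 1 of the 2 libraries left there, Tpsab1 had 4 counts and lay under the CPM that 3 counts make in the organoids (0.181 against 0.198). Mcpt1 was between 0.0529 and 0.337 CPM and Mcpt2 had 1 and 3 counts per group. Kit was at 0.864, 1.20 and 3.64 CPM in wild type and 0.772, 1.64 and 1.04 in the organoids labelled RNF138-/-, down by 5.05 (SE 0.43) and 4.12 (SE 0.44) on the log2 scale. The edgeR test called 6 of 8 members lower than in CAC tissue in wild type (26.8% of genes called lower) and 7 of 8 in the libraries labelled RNF138-/- (26.5%). Mcpt1, Mcpt2, Mcpt4, Cpa3 and Tpsab1 fell below the filter on low counts within the organoids and entered this fit only through the groups where they are high, so these counts are not independent of the filter. Without CAC replicate 1, 5 of 8 stayed called in the latter, Tpsab1 being the other one lost (edgeR adjusted p = 0.0515).

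Tpsb2 and Cma1 overlapped between wild-type organoids and CAC tissue. Tpsb2 was at 11.5, 15.7 and 9.10 CPM there, against 5.78, 29.9 and 4.16 in CAC tissue (log2 fold change -0.15, SE 0.85, edgeR adjusted p = 0.892). In organoids labelled RNF138-/- it was at 1.75, 1.53 and 2.31 CPM, 6.49-fold lower than in wild-type organoids. That log2 fold change was -2.74 (SE 0.29, edgeR adjusted p = 0.00112, exact permutation p = 0.1, two-sided), and the groups did not overlap, as for 53.3% of all genes. Of the 3 members with enough counts in organoids, Tpsb2 was the 1 called (15.0% of 15294 genes called), and it was called in each of the 6 fits with a library left out. Cma1 was at 1.79, 4.78 and 16.7 CPM in wild-type and 4.70, 1.69 and 4.33 in the other organoids. The latter all lay below the CAC libraries labelled RNF138-/-, where 74.0% of all genes did not overlap in either direction, at a log2 difference of -1.30 (SE 0.83, edgeR adjusted p = 0.187). Between the organoid genotypes Cma1 gave -1.17 (SE 0.74, edgeR adjusted p = 0.242), and turned to 0.089 without wild-type replicate 3. Without wild-type replicate 1 it was called, at -1.63 (edgeR adjusted p = 0.0414). Kit gave -0.73 (SE 0.58) and turned to 0.16 without wild-type replicate 3. The Tpsb2 genotype effect differed between organoids and CAC tissue by -2.38 (SE 1.26, edgeR adjusted p = 0.182, 18.9% of genes called), a contrast added after the values were seen. With a library left out it ranged from -3.79 (without wild-type CAC replicate 2, edgeR adjusted p = 0.0372) to -0.34 (edgeR adjusted p up to 0.87). Against CAC tissue labelled RNF138-/-, the Tpsb2 log2 difference was -2.53 (SE 0.94, edgeR adjusted p = 0.0284). This call was lost without CAC replicate 1 (-0.51, edgeR adjusted p = 0.598), without organoid replicate 1, 2 or 3 (edgeR adjusted p = 0.0748, 0.0861 and 0.0574) and with a replicate block (edgeR adjusted p = 0.0594).

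The organoid label was read against other markers. Ptprc (CD45), which all mast cells carry, was at 0.0576 to 0.202 CPM in wild-type organoids and 0.423 to 1.12 in the others, against 25.8 to 68.3 in CAC tissue, and Fcer1a, the IgE-binding chain of FcεRI, was at 0 in all 6. The 7 epithelial markers summed to between 5466 and 10442 CPM in organoids, and the 7 fibroblast markers to between 9095 and 23226 in wild type and between 40413 and 49670 in the others, against 941 to 1777 in CAC tissue. Between the organoid genotypes, 5 of 7 fibroblast, 4 of 10 smooth muscle and 3 of 5 tested leukocyte and myeloid markers were called higher in those labelled RNF138-/- (7.94% of all genes called higher), where Tpsb2 was lower. Beside Tpsb2 and Cma1, the organoids held Ms4a2, the beta chain of FcεRI, at 3.30 to 4.50 CPM in wild type and 1.42 to 2.39 in the others, and Gata2 at 20.8 to 27.4 and 9.82 to 12.3. Of 16 mast cell identity genes tested against CAC tissue, 4 were called higher and 9 lower in wild type (3387 and 5198 of 19390 genes). In the others 2 were called higher and 9 lower (3466 and 5138 genes). Mcpt8, a basophil protease, was above CAC tissue by 1.08 (SE 0.97, edgeR adjusted p = 0.349) and 5.01 (SE 1.02, edgeR adjusted p = 0.000582) in log2. It fell below the filter within CAC, and the organoid genotypes differed by 2.22 (SE 0.97, edgeR adjusted p = 0.105). The part of the stromal and leukocyte genes in these values was not tested.

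Of 18 other mast cell identity genes, 16 were tested between CAC and colitis, where 5 were called higher and 0 lower in wild type (by edgeR 0 lower also at an unadjusted p under 0.05, and 0 by DESeq2), and 6 higher and 3 lower in the libraries labelled RNF138-/-, with median log2 fold changes of 0.40 and 0.02 against 0.04 over all genes in each. Over all genes, 9.78% were called higher and 3.81% lower in wild type, and 17.5% and 19.6% in the others. Fcer1a, Ms4a2, Cd200r3 and Ltc4s fell below the filter within colitis and entered only through other groups. All 5 called in wild type were among the 6 called in the libraries labelled RNF138-/-. Hdc, the enzyme that makes histamine, rose by 2.47 (SE 0.46) and 3.42 (SE 0.44). Il1rl1, the IL-33 receptor, rose by 2.82 (SE 0.44) and 3.62 (SE 0.45), and Cd200r3, an activating receptor of mast cells and basophils, by 2.62 (SE 0.59) and 3.04 (SE 0.58). Fcer1a was at 1.41, 5.49 and 1.04 CPM in wild-type CAC and 5.84, 0.89 and 0.271 in the others, with 1 colitis library of 6 above 0. Ms4a2 was at 5.96, 10.6 and 0.757 CPM and 5.36, 6.23 and 27.3, and so was highest in the CAC replicate 3 labelled RNF138-/-, where Fcer1a and Cpa3 were lowest. In the libraries labelled RNF138-/-, Hpgds, which makes prostaglandin D2, rose by 1.13 (SE 0.44), while Rgs13, Tph1 and Ltc4s fell by 4.29, 3.87 and 2.58 on the log2 scale. Within CAC, Hdc was higher in the libraries labelled RNF138-/- (1.99, SE 0.40, edgeR adjusted p = 0.043), and Rgs13 (-4.18) and Tph1 (-3.17) were lower, so that 1 of 15 was higher and 2 lower, where 5.37% of all genes were called and 4.83% called lower. Basophils share several of these genes, and their proteases Mcpt8 and Prss34 were at 0.0452 to 0.376 and 0 to 0.159 CPM in CAC.

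**Figure D5:**
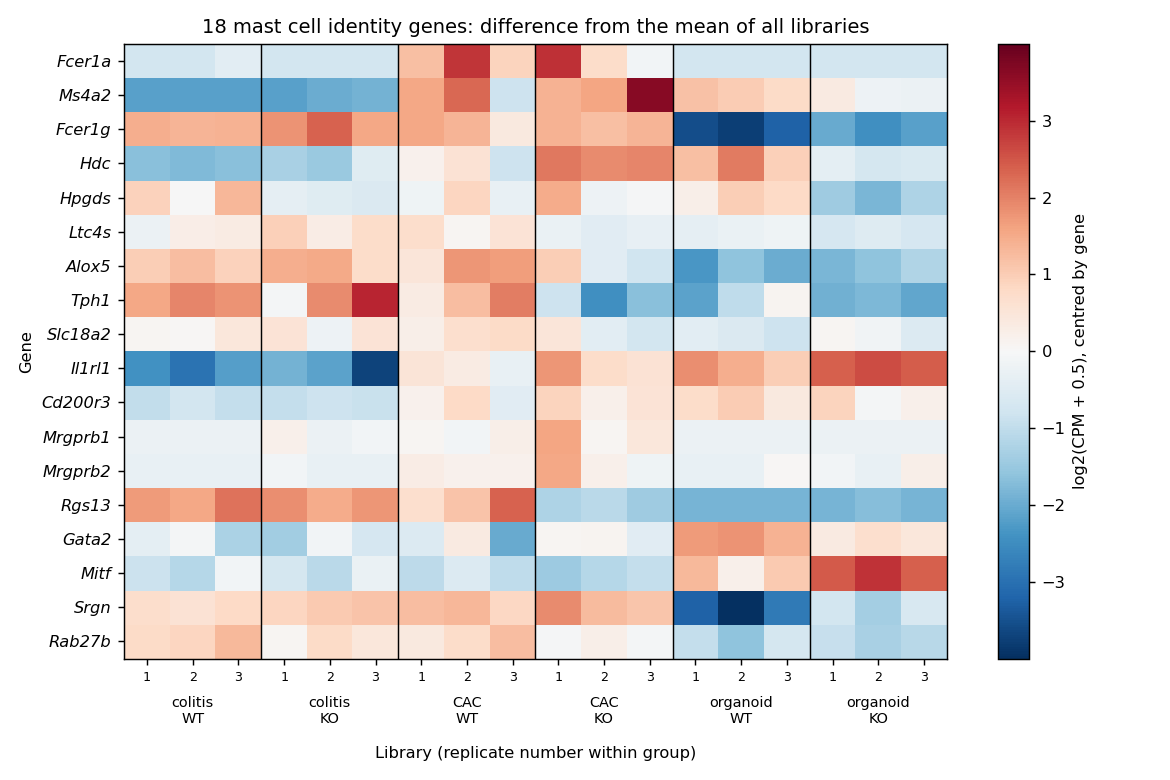
Difference of log2(CPM + 0.5) from each gene's mean over the 18 libraries (color scale, red higher, blue lower) for the 18 mast cell identity genes, in columns by library and group. Fcer1a, Ms4a2, Hdc, Il1rl1 and Cd200r3 are low in the 6 colitis libraries and higher in CAC, while Fcer1g, Srgn and Rgs13 are low in the organoids.

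In the organoids, 3 of 12 tested identity genes were called higher and 4 lower in the libraries labelled RNF138-/-, where 15.0% of all genes were called. Gata2 (-1.21, SE 0.16), Ms4a2 (-1.21, SE 0.31), Hpgds (-2.30, SE 0.25) and Hdc (-2.36, SE 0.36) were lower, like Tpsb2. Mitf (1.66, SE 0.27), Fcer1g (2.52, SE 0.50) and Srgn (2.78, SE 0.41), the latter encoding serglycin, were higher. Of the 10 granule formation genes, Ctsc, which activates chymases by cutting their propeptide, rose by 1.50 (SE 0.16) and Lyst by 1.08 (SE 0.24), while in CAC tissue Hdc was the 1 of 10 called between the genotypes (5.37% of all genes called), with 5 of 10 at an unadjusted p under 0.05.

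Among signals that recruit or feed mast cells, edgeR called 0 of 16 tested genes between the genotypes in CAC (5.37% of all genes called), where 6 had an unadjusted p under 0.05 and DESeq2 called 3 higher and 2 lower. It called 0 of 16 in colitis (0.0902% of all genes called), where 4 had an unadjusted p under 0.05 and DESeq2 called 0. Between CAC and colitis, Il33, an alarmin that activates mast cells, rose by 1.94 (SE 0.47) in wild type and 2.98 (SE 0.47) in the libraries labelled RNF138-/-. Cxcr2, a chemokine receptor of neutrophils and mast cell progenitors, was at 1.84, 2.21 and 1.04 CPM in wild-type CAC and 8.66, 6.43 and 3.98 in the others, against at most 0.0561 in colitis. Cxcr2 entered the fit only through groups where it is high. Il33 and Cxcr2 were the 2 of 17 called in wild type, where 9.78% of all genes were called higher, and Itgb7 (-1.58), Il9r (-1.88) and Il10 (-1.93) were called lower in the others, where 19.6% of all genes were. Kitl, the Kit ligand, was at 173, 163 and 106 CPM in wild-type CAC and 254, 176 and 174 in CAC labelled RNF138-/-, and was not called. Organoids labelled RNF138-/- had more Il3ra (1.23) and Itga4 (1.71) and less Itgae (-1.13) than wild-type ones.

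Neighbours in the protease loci did not all follow the members. In the chymase cluster, Mcpt9 rose in wild-type CAC to 0.738, 4.46 and 0.568 CPM from 0 in all 3 colitis libraries, and Gzmb, which T and NK cells also use, fell by 2.48 (SE 0.41) from colitis to CAC in the libraries labelled RNF138-/-. There the granzymes Gzmc and Gzme were called higher, at between 0.0809 and 1.58 CPM in CAC. Mcpt9, Gzmc and Gzme entered the fit only through groups other than colitis. In the tryptase cluster, Tpsg1, a membrane-bound tryptase, fell from colitis to CAC by 1.65 (SE 0.43) and 3.69 (SE 0.48), while Prss27 rose by 1.83 (SE 0.60) and 1.75 (SE 0.56). Prss22 was called higher in each genotype, at 22.3, 7.80 and 0.378 CPM in wild-type CAC and 36.1, 10.2 and 7.73 in the others, against at most 0.179 in colitis. It fell below the filter within colitis and entered the fit only through other groups. Prss30 and Prss32 fell by 4.89 (SE 0.56) and 1.10 (SE 0.27) in the libraries labelled RNF138-/- and were lower there than in wild-type CAC (-4.01 and -1.34), as was Tpsg1 (-2.80).

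Genes most like a member were ranked by the correlation of deviations from the 4 group means over the 12 colon libraries, among 15998 genes with a mean of at least 1 CPM. Mcpt1 was most like Mcpt2 (0.98), Fcer1a (0.97), Rfx4 (0.96), Nploc4 (0.95) and F730043M19Rik (0.93). Cpa3 was most like Gm35066 (0.96), Smurf1 (0.94), Osm (0.94), Tpsb2 (0.93) and Rgs11 (0.93). Kit was most like Pafah2 (0.94), Plcb1, Otc, Gpatch8 and Anxa11 (all 0.91), with no other member among them. The highest of 15998 correlations over 12 libraries can be large without a link between the genes, and no link was tested.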

How the data were processed

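RNA of 18 libraries was measured by RNA sequencing in 6 groups of 3. The authors deposited whole-number read counts per gene without normalization. Per the labels, STAR 2.6.1d and HTSeq 0.11.2 were used with mm10, while the paper names Cufflinks with Gencode vM8, and use of strand is not given in the sources used here. A second deposited table holds the authors' own log2 fold changes and p-values, which were not used. Total counts between 11514716 and 24390082 limit the precision of genes with few counts.

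Counts were tested by edgeR 4.0.16 (R 4.3.3, limma 3.58.1) with TMM, filterByExpr and the quasi-likelihood test, within each model for genotype and in a fit of all 18 libraries between models. The SE is the log2 fold change divided by the root of F, and intervals are 1.96 SE wide on each side. A gene was called at a Benjamini-Hochberg adjusted p under 0.05 over all genes tested and a fold change of at least 2. Single values had an exact permutation test (two-sided, scipy 1.17.1). A fold against a group at 0 used 3 counts per library, and ratios on 1 to 3 counts have exact 95% intervals, both covering counting error only. Exon lengths and positions come from GENCODE M21 (36700 of 36757 gene IDs matched), promoters from RefSeq (5 of 8 members matched), and alignments from Biopython 1.88. The fits were checked on simulated data. Alternatives were DESeq2 1.42.0, other size factors, no filter, a replicate block, fits of 2 models and leaving out each library. Members and lists were chosen with earlier results of these data known. The named genes are the 8 members, called genes of the other lists (at most 8 per list by size of change) and the 5 genes most like Mcpt1, Cpa3 and Kit, and further list genes were named as context after their values were seen.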

Additional observations from a re-analysis of the deposited data

How the results depend on the processing

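The number of members called was within 1.5 times the reported one in 44 of 45 cases under other size factors, library totals only, no filter, DESeq2, a replicate block or a fit of 2 models. The exception was genotype in CAC, where the replicate block left 0 called. With each library left out in turn, the number called ranged from 0 to 1 for genotype in CAC, from 1 to 2 in organoids, from 3 to 8 for CAC against colitis in wild type and from 5 to 8 in libraries labelled RNF138-/-. Library totals in place of TMM moved the median of all genes by up to -0.62 (organoids against CAC tissue, labelled RNF138-/-), by 0.26 for genotype in CAC and by 0.31 for CAC against colitis labelled RNF138-/-, and turned no direction of a reported member value.

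Directions turned for uncalled values only. With the replicate block, Tpsb2 turned to -0.12 for genotype in colitis and to 0.066 for organoids against CAC tissue in wild type. With a library left out, genotype in colitis ranged from -0.40 to 0.67 for Tpsb2. Genotype in CAC ranged from -4.53 to -0.026 for Mcpt1, which kept its sign, and from -3.66 to 0.27 for Mcpt2, -3.08 to 0.054 for Mcpt4, -0.068 to 1.19 for Cma1, -2.59 to 0.69 for Cpa3, -2.39 to 1.07 for Tpsb2 and -2.96 to 1.25 for Tpsab1. Genotype in organoids ranged from -1.63 to 0.089 for Cma1 and -1.08 to 0.16 for Kit, and organoids against CAC tissue in wild type from -1.06 to 1.04 for Cma1 and -0.57 to 1.27 for Tpsb2. The fit of 2 models lost the Tpsb2 call between CAC and colitis in each genotype. The cause was not tested.

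Whether replicate numbers pair the samples was not settled. Deviations of same-numbered libraries of the 2 genotypes correlated at 0.068 to 0.44 (colitis), 0.03 to 0.19 (CAC) and -0.15 to 0.032 (organoids). Those of libraries with different numbers correlated at -0.33 to 0.22, -0.13 to 0.043 and -0.11 to 0.16. Over all genes, the replicate block moved the genotype calls from 15 to 89 in colitis, from 954 to 1079 in CAC and from 2292 to 2071 in organoids. DESeq2 gave 343, 2463 and 2322, and no filter 354, 1641 and 2641. Library totals changed the split of calls from 1215 higher and 1077 lower to 936 and 1654 for genotype in organoids, from 3392 and 3804 to 4789 and 2932 for CAC against colitis labelled RNF138-/-, from 3466 and 5138 to 2177 and 8153 for organoids against CAC labelled RNF138-/-, from 498 and 1817 to 844 and 1453 for the difference of genotype effects between CAC and colitis, and from 2211 and 1462 to 1520 and 3434 for the added one between organoids and CAC. The former difference had 2315 calls, and 1571 in the fit of 2 models. The fit with a term for Y-linked expression in colitis and CAC could not be made, since all 12 of these libraries express the Y-linked genes.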
